A study of Mus musculus with 14 samples.

Results

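The E2f transcription factors and the pocket proteins that hold them were followed by gene in sorted mouse hair follicle stem cells. The set was fixed by name as E2f1 to E2f8 with Rb1 and Rbl1, which gives 10 genes of the 34049 genes with any count. All 10 passed the filter on low counts, which kept 24592 genes. Bulk RNA of 14 libraries was sequenced, and the 4 groups were P20 Irx5KO (4 libraries), P20 WT (4 libraries), P18 Irx5KO (3 libraries) and P18 WT (3 libraries), where P18 and P20 are postnatal days 18 and 20. Irx5KO stands for loss of Irx5, a homeobox transcription factor, and the title of the series ties that gene to DNA repair and activation of these stem cells. P18 WT 3, counted as WT by its title, carries a mark for a heterozygote in the deposited data. The labels name neither the strain nor the allele, nor whether the loss is confined to a cell type. Whether each library stands for its own mouse is not stated either, so the p-values below rest on library-to-library spread that may be technical. All groups shared the same preparation: back skin digested with trypsin, and cells sorted as CD34 positive, positive for a marker written CD45f, and Ly-6A/E negative.

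E2F proteins bind DNA as partners of a DP protein and switch the genes of S-phase entry on or off. E2f1, E2f2 and E2f3 are the activating members, E2f4 and E2f5 act mainly as repressors together with pocket proteins, E2f6 represses with Polycomb proteins, and E2f7 and E2f8 are atypical repressors that bind without a DP partner. The pocket proteins pRb (gene Rb1) and p107 (gene Rbl1) bind E2F until cyclin-dependent kinases phosphorylate them. Several genes of the family, among them E2f1, E2f2, E2f3, E2f7, E2f8 and Rbl1, are themselves known E2F targets, so their transcripts rise in cells that enter S phase. Bulge stem cells are mostly quiescent between hair growth phases.

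The proximal promoters of 4 of the 5 members whose genotype difference was not the same on both P20 dates are shown first. Each is the 250 bases before a RefSeq transcription start (assembly GRCm38.p6, printed 5′ to 3′ on the strand of the gene). RefSeq windows were matched for 7 of the 10 members. Capitals mark E2F core strings on either strand. The strings searched were TTCCCGC, which E2f7 and E2f3 hold, TTCGCGC, which Rbl1 holds, TTGCCGC, which none of the windows shown holds, and TTGGCGC, which E2f8 and E2f7 hold. A string on the opposite strand is printed as its reverse complement.
Rbl1, chr2:157204535-157204784, minus strand: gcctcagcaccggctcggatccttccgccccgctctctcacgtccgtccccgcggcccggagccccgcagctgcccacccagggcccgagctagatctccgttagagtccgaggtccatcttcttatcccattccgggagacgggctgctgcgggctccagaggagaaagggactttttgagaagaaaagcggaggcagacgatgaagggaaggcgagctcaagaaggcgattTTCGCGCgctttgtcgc
E2f8, chr7:48881597-48881846, minus strand: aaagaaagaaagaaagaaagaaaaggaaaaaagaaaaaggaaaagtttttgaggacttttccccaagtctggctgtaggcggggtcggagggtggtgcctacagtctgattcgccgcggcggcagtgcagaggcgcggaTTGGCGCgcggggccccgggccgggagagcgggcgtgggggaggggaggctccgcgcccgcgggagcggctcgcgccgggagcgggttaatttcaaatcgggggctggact
E2f7, chr10:110745189-110745438, plus strand: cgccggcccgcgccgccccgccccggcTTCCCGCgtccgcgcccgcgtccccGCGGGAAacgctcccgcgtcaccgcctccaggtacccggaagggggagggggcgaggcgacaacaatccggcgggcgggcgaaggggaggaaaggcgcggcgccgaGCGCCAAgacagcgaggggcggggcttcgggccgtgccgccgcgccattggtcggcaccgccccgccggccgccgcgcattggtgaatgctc
E2f3 (start of the long form), chr13:29986064-29986313, minus strand: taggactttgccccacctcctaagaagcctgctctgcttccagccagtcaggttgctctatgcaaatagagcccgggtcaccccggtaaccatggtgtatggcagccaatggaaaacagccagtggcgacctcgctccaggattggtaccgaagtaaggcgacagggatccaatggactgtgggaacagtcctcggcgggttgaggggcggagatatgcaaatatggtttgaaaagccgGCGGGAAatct
Rbl1 held 1 core string, whose first base lay at -17 from the start. E2f8 held 1 at -111, E2f7 held 3 at -223, -198 and -92, and the long-form start of E2f3 held 1 at -11. In E2f8 the core string overlapped the opposite-strand CCAAT string at -112. TTTGAA, the letters of the CHR element that MuvB complexes bind, lay at -20 in E2f8 and at -23 in E2f3. Over 32851 RefSeq windows of the same length, 7.89% held a core string, 15.99% held TTTGAA and 33.8% held CCAAT, both strands counted. No core string was found in the windows of E2f1, E2f2, E2f6 and the short-form start of E2f3. The RefSeq window of E2f1 lies within the gene as GENCODE annotates it (chr2:154559407-154569892, minus strand). So does a second window of E2f2 (chr4:136180532-136180781, plus strand), in a gene that spans chr4:136172394-136196057. That window held TTTGAA at -31. A match is only a match of letters, and binding was not measured.

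The libraries held 13618367 to 70083873 estimated counts. The deposited data carry 2 codes at each age that were read here as dates, with both genotypes on each date. At P20 the libraries numbered 1 and 2 share the later date and those numbered 3 and 4 the earlier one. On the later P20 date Irx5 had 30.0 and 18.1 CPM in the libraries labelled Irx5KO, against 107.8 and 93.6 CPM in those labelled WT. The earlier date had the other order, 180.7 and 170.2 CPM for libraries labelled Irx5KO against 33.3 and 37.6 CPM for libraries labelled WT, so Irx5 went against the labels of that date. CPM here are counts scaled to a common total with TMM library sizes. Irx5 reads in a knockout may come from parts of the gene that were not deleted, and the labels do not say which part was. Division also differed between these libraries. The proliferation marker Mki67 had 18.5 and 14.5 CPM in the later P20 libraries labelled Irx5KO against 429.5 and 227.9 CPM in WT, while the earlier ones labelled Irx5KO had 1253 and 1420 CPM against 10.5 and 3.75 CPM in WT. At P18 it lay between 14.1 and 36.5 CPM in all 6 libraries. Olfactory and vomeronasal receptor genes held 5.37%, 1.78% and 2.37% of the counts of P18 WT 2, P18 WT 1 and P20 WT 2, against 0.102% to 0.604% in the other 11 libraries. In bulk RNA a larger share of dividing cells and more RNA per cell cannot be told apart.

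The sort was checked against marker genes. Cd34 lay between 241.7 and 919.9 CPM, Sox9 between 751.9 and 1888 CPM and Lgr5 between 186.8 and 437.2 CPM over the 14 libraries. Ly6a, the gene of the antigen gated against, reached 2.72 CPM at most, whereas Krt79, the other infundibulum gene looked at, reached 353.3 CPM. Ptprc, the pan-leukocyte gene, reached 20.5 CPM and Cd74, a gene of antigen-presenting cells, 79.2 CPM. The 4 leukocyte genes summed to 6.41 to 83.7 CPM in P20 Irx5KO and 15.1 to 37.5 CPM in P20 WT. Of fibroblast genes Col1a1 reached 246.5 CPM, and the 4 of them summed to 47.1 to 297.0 CPM in P20 Irx5KO and 107.4 to 236.4 CPM in P20 WT. The 5 suprabasal epidermis genes summed to 731 to 4027 CPM in P20 Irx5KO libraries and 241 to 1315 CPM in P20 WT libraries. The highest sum was that of P20 Irx5KO 1 alone. Krt10, of these genes, had 3036 CPM there against 443.5 to 592.7 CPM in the other P20 Irx5KO libraries and 147.5 to 913.3 CPM in P20 WT.

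Levels between members were compared per length, as TPM summed over full-length coding transcripts (coding sequence at least 70% of the longest of the gene). E2f4 was the highest of the family, with a median of 21.0 TPM over the 14 libraries (12.0 to 34.5). Rb1 followed with a median of 10.5 TPM (6.73 to 14.2) and E2f5 with 9.46 TPM (3.65 to 20.6). E2f1 had a median of 5.21 TPM (1.27 to 14.8), E2f8 of 3.46 TPM (0.659 to 13.3) and Rbl1 of 2.53 TPM (0.723 to 16.7). The lowest were E2f3 at 0.824 TPM, E2f2 at 0.677 TPM, E2f7 at 0.280 TPM and E2f6 at 0.132 TPM. The ranges of each neighbouring pair in this order overlapped over the libraries. Within each library, however, Rbl1 lay above E2f3, with 0.723 against 0.448 TPM in P20 Irx5KO 1. E2f4 lay above Rb1 in each library except P18 Irx5KO 2, which had 12.0 against 13.3 TPM. The other steps changed order in some libraries, and no step was tested. The order depended on the transcripts that were counted. With all annotated transcripts the medians were 26.7 TPM for E2f4, 24.9 for Rb1, 10.5 for Rbl1, 9.46 for E2f5, 8.40 for E2f7, 5.84 for E2f6, 5.21 for E2f1, 5.001 for E2f8, 3.96 for E2f2 and 0.824 for E2f3.

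**Figure D1:**
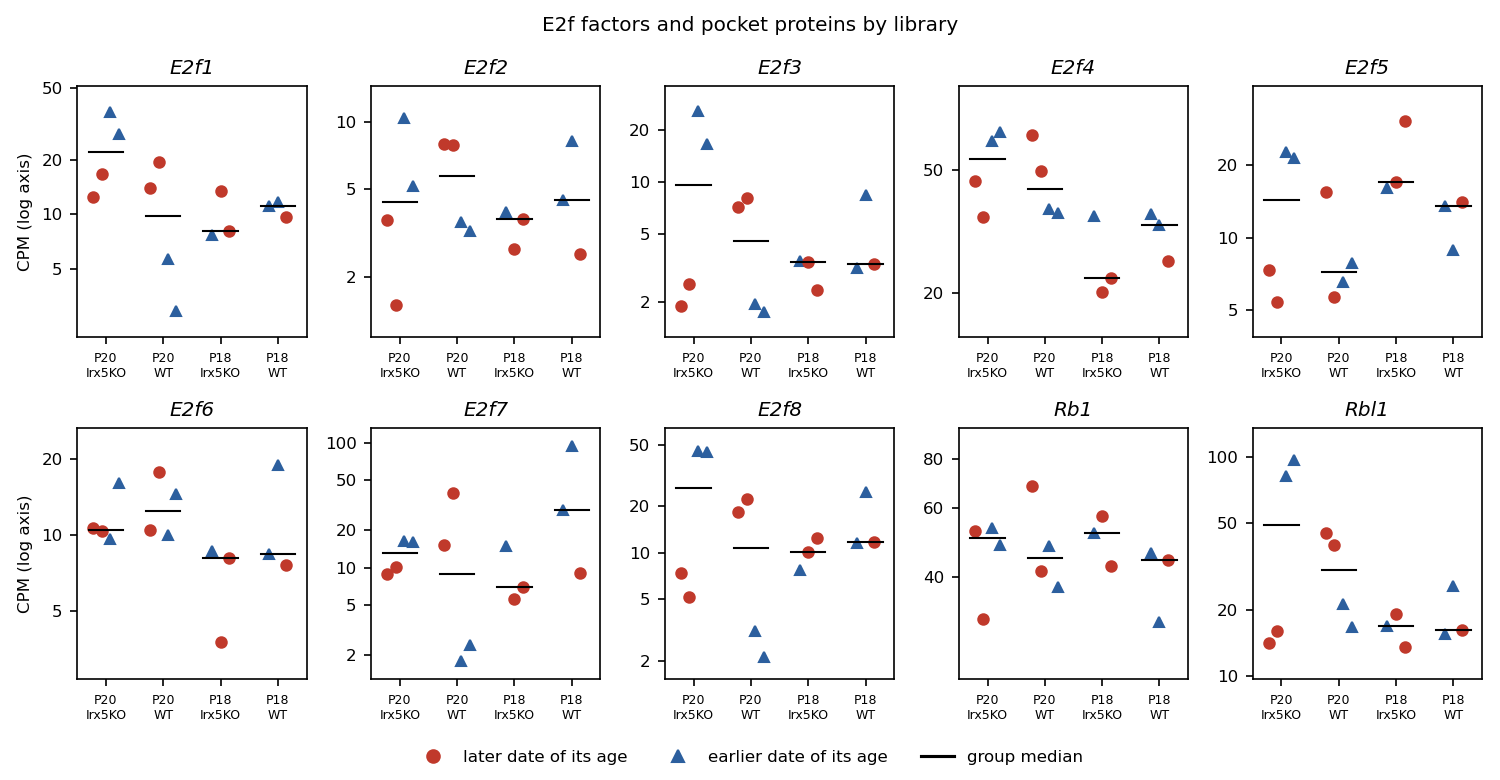
CPM (log axis) of each of the 10 genes in the 14 libraries, by age and labelled genotype; circles are the later and triangles the earlier date of an age, and bars are group medians. In P20 Irx5KO the earlier-date libraries stand above the later-date ones for E2f1, E2f2, E2f3, E2f4, E2f5, E2f7, E2f8 and Rbl1, and P18 WT 2 stands apart for E2f7 at 93.3 CPM.

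The members differed in how far they moved between libraries. E2f7 spanned 1.80 to 93.3 CPM, an SD of 1.48 on the log2 CPM scale over the 14 libraries. E2f8 had an SD of 1.29 and E2f3 of 1.19, then Rbl1 of 0.93 and E2f1 of 0.92. Rb1 moved least, from 30.9 to 68.3 CPM with an SD of 0.32, and E2f4 had an SD of 0.54. Counts behind the low members were few: E2f3 had 29 to 371 counts a library and E2f2 50 to 314, whereas Rb1 had 623 to 3041.

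The P20 dates were compared each alone, because the date codes split the labelled genotypes evenly and Irx5 went opposite ways on them. On the later date no member passed at an adjusted p under 0.05 by edgeR's quasi-likelihood test. There, 4 members had an unadjusted p under 0.05, as did 1702 of the 24592 genes tested. DESeq2 called Rbl1 and E2f8 among 463 genes (1.88%) on that date, and voom called 32 genes (0.130%) and no member. Over all genes tested, 161 passed there (0.655%), 34 of them higher (0.138%) and 127 lower (0.516%) in Irx5KO. All 10 members had a negative log2 fold change on that date, with a median of -1.10, beside a median of -0.34 over all genes tested. With 1 library left out, E2f1 turned to 0.046 (without P20 Irx5KO 1) or 0.070 (without P20 WT 2), E2f6 to 0.0095 (without P20 WT 2), and E2f5 and Rb1 to 0.17 and 0.021 (without P20 WT 1). On the earlier date 5 of the 10 members were higher in the libraries labelled Irx5KO and none was lower, where 2.20% of all genes tested were higher and 2.64% lower (1189 genes, 4.83%). The 5 were E2f1, E2f3, E2f7, E2f8 and Rbl1. The median log2 fold change of the 10 members was 1.91 there, beside 0 over all genes tested. The groups did not overlap for 6 members on the later date, each lower in Irx5KO, and for 9 members on the earlier date, each higher in the libraries labelled Irx5KO, where 30.0% and 40.5% of all genes tested did not overlap in either direction.

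Rbl1, the gene of the pocket protein p107, which binds E2f4 and E2f5 and is induced at S-phase entry (chr2:157145893-157204534, minus strand), had opposite signs on the dates. Later-date libraries had 14.2 and 16.1 CPM in Irx5KO against 44.7 and 39.7 CPM in WT. Earlier-date ones had 81.8 and 96.3 CPM in the libraries labelled Irx5KO against 21.4 and 16.8 CPM in WT. The lowest WT library of the later date lay above the highest of the earlier date. On the later date the log2 fold change was -1.48 ± 0.32 (SE, n = 2 and 2), with an adjusted p of 0.0571 by edgeR's quasi-likelihood test. On the earlier date it was 2.22 ± 0.33 with an adjusted p of 0.00104. The later-date value lay close to the threshold: it passed in 9 of 23 alternatives, with adjusted p-values from 0.00123 to 0.653. Over the full-length coding transcript alone, the later-date log2 fold change was -2.51 ± 0.42 with an adjusted p of 0.00918, a setting chosen after the data were seen. The remaining Rbl1 transcripts are annotated as retained introns, and the coding one held 22.9% to 93.7% of the counts of the gene.

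E2f8, an atypical repressor (chr7:48866429-48881596, minus strand), had the largest earlier-date difference of the set. It had, on the later date, 7.34 and 5.14 CPM in Irx5KO against 18.3 and 22.2 CPM in WT. The earlier date gave 45.7 and 44.8 CPM in the libraries labelled Irx5KO against 3.13 and 2.12 CPM in WT. The replicates of each pair lay close together and the pairs did not overlap on either date. The log2 fold change was -1.70 ± 0.44 on the later date (adjusted p = 0.140) and 4.10 ± 0.49 on the earlier date (adjusted p = 1.6e-04, edgeR). The earlier-date call held in all 23 alternatives run.

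E2f7, the other atypical repressor (chr10:110745439-110787384, plus strand), had less even replicates in its gene sum. Its later-date values were 8.92 and 10.2 CPM in Irx5KO against 15.3 and 39.2 CPM in WT. Its earlier-date values were 16.4 and 15.9 CPM in the libraries labelled Irx5KO against 1.80 and 2.42 CPM in WT. The earlier-date log2 fold change was 2.94 ± 0.56 (adjusted p = 0.00607, edgeR), and without P20 WT 3 it was 2.69 with an adjusted p of 0.0995. The later-date log2 fold change was -1.51 ± 0.52 (adjusted p = 0.418, edgeR), and it was -0.67 without P20 WT 2 and -2.03 without P20 WT 1. In P20 WT 2, a library with a raised share of receptor genes, a short transcript held 890 of the 992 counts of E2f7. Full-length coding transcripts alone had 1.32 and 0.478 CPM in Irx5KO against 4.35 and 4.03 CPM in WT on that date.

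**Figure D2:**
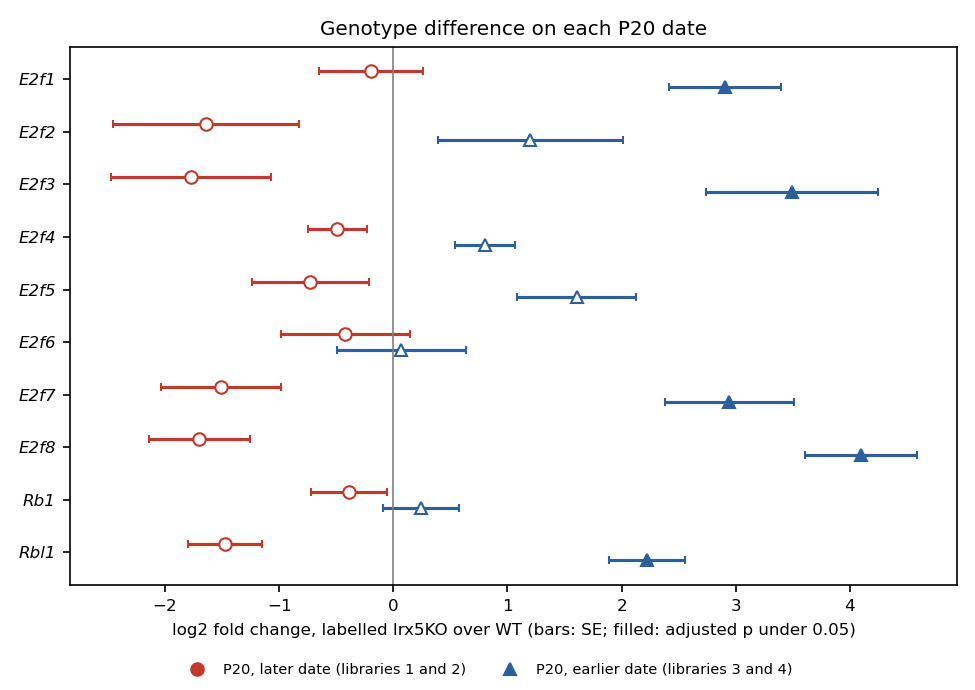
Log2 fold change of labelled Irx5KO over WT for the 10 genes on each P20 date, with bars of 1 SE; filled symbols passed at an adjusted p under 0.05. All circles (later date) lie below 0 and all triangles (earlier date) above it, with filled triangles for E2f1, E2f3, E2f7, E2f8 and Rbl1.

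Of the activating members, E2f1 and E2f3 passed on the earlier date and E2f2 on neither, and the differences between these genes were not tested. E2f3 (chr13:29906575-29986063, minus strand) had 1.90 and 2.54 CPM in Irx5KO against 7.13 and 8.06 CPM in WT on the later date. Earlier-date E2f3 had 25.5 and 16.5 CPM in the libraries labelled Irx5KO against 1.97 and 1.76 CPM in WT. Its log2 fold change was -1.77 ± 0.70 on the later date (adjusted p = 0.581) and 3.49 ± 0.75 on the earlier date (adjusted p = 0.0138, edgeR). The earlier-date call for E2f3 was lost without P20 WT 3 (3.53, adjusted p = 0.148) and without P20 WT 4 (3.36, adjusted p = 0.125).

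E2f1 is an activator that also takes part in the response to DNA damage. On the later date it had 12.4 and 16.8 CPM in Irx5KO against 13.96 and 19.5 CPM in WT, and these groups overlapped (log2 fold change -0.20 ± 0.46, adjusted p = 0.956, edgeR). For the earlier date it had 36.8 and 27.7 CPM in the libraries labelled Irx5KO against 5.66 and 2.91 CPM in WT. That log2 fold change was 2.90 ± 0.49 (adjusted p = 0.00265, edgeR), and without P20 WT 4 it was 2.46 with an adjusted p of 0.0538.

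E2f2 (chr4:136172394-136196057, plus strand) passed on neither date. It had 3.60 and 1.49 CPM in Irx5KO against 8.00 and 7.90 CPM in WT on the later date, and 10.4 and 5.14 CPM in the libraries labelled Irx5KO against 3.53 and 3.21 CPM in WT on the earlier one. The log2 fold changes were -1.64 ± 0.81 (adjusted p = 0.727) and 1.20 ± 0.81 (adjusted p = 0.509). The earlier-date value was 0.61 without P20 Irx5KO 3.

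The pocket-bound repressors E2f4 and E2f5 passed on neither date by edgeR. E2f4, the main E2F of resting cells (chr8:105297663-105305370, plus strand), had 45.8 and 35.3 CPM in Irx5KO against 64.4 and 49.5 CPM in WT on the later date. On the earlier date it had 62.0 and 66.2 CPM in the libraries labelled Irx5KO against 37.3 and 36.2 CPM in WT. The earlier-date log2 fold change was 0.80 ± 0.26 (adjusted p = 0.105, edgeR), and E2f4 passed there in 2 of 23 alternatives. E2f5 (chr3:14578641-14606309, plus strand) had 22.6 and 21.4 CPM in the libraries labelled Irx5KO against 6.56 and 7.87 CPM in WT on the earlier date, a log2 fold change of 1.61 ± 0.52 (adjusted p = 0.102) that passed in 4 of 23 alternatives. On the later date E2f5 had 7.37 and 5.41 CPM in Irx5KO against 15.4 and 5.69 CPM in WT, which overlapped.

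E2f6 and Rb1 had the smallest differences on the earlier date. E2f6, the Polycomb-linked repressor (chr12:16810963-16839742, plus strand), had 10.7 and 10.4 CPM in Irx5KO against 10.5 and 17.7 CPM in WT on the later date, and 9.63 and 16.02 CPM in the libraries labelled Irx5KO against 9.996 and 14.5 CPM in WT on the earlier one. Rb1 (chr14:73183673-73325822, minus strand) had 52.4 and 31.4 CPM in Irx5KO against 68.3 and 41.4 CPM in WT, and 53.4 and 48.2 CPM in the libraries labelled Irx5KO against 48.0 and 37.7 CPM in WT. The log2 fold changes of Rb1 were -0.39 ± 0.33 and 0.24 ± 0.33 on the later and earlier date (adjusted p = 0.853 and 0.847). The E2f6 values were -0.42 ± 0.56 and 0.07 ± 0.57, and its groups overlapped on both dates.

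The difference between the dates was tested directly, as the later-date fold change minus the earlier-date one. Of the 10 members, 5 were lower and none was higher, where 2.68% of all genes tested were lower and 2.49% higher (1271 genes, 5.17%). The differences on the log2 scale were -5.79 ± 0.65 for E2f8 (adjusted p = 6.0e-05, edgeR), -5.27 ± 1.03 for E2f3 (adjusted p = 0.00584), -4.45 ± 0.77 for E2f7 (adjusted p = 0.00231), -3.70 ± 0.46 for Rbl1 (adjusted p = 1.6e-04) and -3.10 ± 0.66 for E2f1 (adjusted p = 0.0109). E2f1 no longer passed without P20 Irx5KO 1 (adjusted p = 0.0815), without P20 Irx5KO 2 (0.0518) or without P20 WT 4 (0.0745). E2f4 had -1.29 ± 0.37 (adjusted p = 0.0582), E2f5 -2.33 ± 0.73 (0.0851), E2f2 -2.84 ± 1.15 (0.212), E2f6 -0.49 ± 0.80 and Rb1 -0.64 ± 0.47. Within P20, the libraries labelled Irx5KO 3 and 4 and WT 1 and 2 were also those with Mki67 of 227.9 CPM or more and Irx5 of 93.6 CPM or more. The part of the date, of a possible exchange of labels and of the share of dividing cells in these differences was not tested.

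Over both P20 dates together, with the date as a covariate, no gene and no member passed (0.00% of genes tested, smallest adjusted p 0.825, 1082 genes at an unadjusted p under 0.05). DESeq2 called 91 genes (0.370%) and no member in that comparison, and limma voom with sample quality weights 181 (0.736%), E2f1 and E2f8 among them. E2f1 had 23.4 ± 10.99 CPM in Irx5KO and 10.5 ± 7.62 CPM in WT (SD, n = 4 each), a log2 fold change of 1.34 ± 0.58 (adjusted p = 0.825). It was 0.73 without P20 WT 4 and 1.89 without P20 Irx5KO 1. For E2f8 it was 1.17 ± 1.37, for E2f3 0.85 ± 1.13, for E2f7 0.67 ± 1.02, for E2f5 0.44 ± 0.50 and for Rbl1 0.37 ± 0.71. For E2f4 it was 0.16 ± 0.26, for Rb1 -0.07 ± 0.25, for E2f6 -0.18 ± 0.40 and for E2f2 -0.22 ± 0.73. The within-date values above had opposite signs for these genes, although the groups of E2f1, E2f5, E2f6 and Rb1 overlapped on the later date. No member's groups were free of overlap over both dates, against 1.07% of all genes tested.

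At P18, no gene and no member passed between the genotypes by edgeR (0.00% of genes tested, smallest adjusted p 0.919, 977 genes at an unadjusted p under 0.05). P18 WT 3 carries a mark for a heterozygote in the deposited data and was counted as WT by its title, which limits each P18 comparison below. DESeq2 called 22 genes there (0.0895%) and voom 1 (0.00407%), and neither called a member. E2f1 had 7.68, 13.5 and 8.07 CPM in Irx5KO against 11.1, 11.7 and 9.67 CPM in WT. Rbl1 had 17.0, 19.3 and 13.6 CPM in Irx5KO against 15.6, 25.9 and 16.3 CPM in WT. E2f8 had 7.68, 10.1 and 12.4 CPM in Irx5KO against 11.5, 24.5 and 11.6 CPM in WT. P18 WT 2 was the highest of the 6 libraries for E2f8, and also for E2f2, E2f3, E2f6, E2f7 and Rbl1. E2f2 had 3.94, 2.68 and 3.63 CPM in Irx5KO against 4.45, 8.25 and 2.54 CPM in WT, and E2f3 had 3.45, 3.42 and 2.36 CPM against 3.18, 8.34 and 3.33 CPM. Their log2 fold changes were -0.19 ± 0.86 and -0.47 ± 1.00. E2f6 had 8.62, 3.77 and 8.11 CPM in Irx5KO against 8.39, 18.9 and 7.62 CPM in WT (-0.51 ± 0.49). E2f4 had 35.5, 20.2 and 22.4 CPM in Irx5KO against 36.0, 33.2 and 25.5 CPM in WT (-0.11 ± 0.30), and Rb1 had 51.9, 57.4 and 42.7 CPM against 46.2, 30.9 and 44.2 CPM (0.30 ± 0.30). All of these overlapped. E2f5 had 16.1, 17.0 and 30.4 CPM in Irx5KO against 13.6, 8.93 and 14.1 CPM in WT (log2 fold change 0.63 ± 0.57). The groups of E2f5 were close but did not overlap, as was the case for 23.4% of all genes tested. E2f7 had the P18 log2 fold change farthest from 0, with 15.04, 5.66 and 7.01 CPM in Irx5KO against 28.7, 93.3 and 9.10 CPM in WT (log2 fold change -1.27 ± 1.08, adjusted p = 0.919). Within the P18 dates, the E2f7 log2 fold change was -0.52 ± 0.62 on the later date, where P18 WT 3 is the only WT library, and -2.02 ± 0.69 on the earlier date, where P18 Irx5KO 1 is the only Irx5KO library. The receptor-rich libraries P18 WT 2 and P18 WT 1 were those with the highest E2f7 at that age, and the part of this in the value was not tested.

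Between the ages no member passed in either genotype by edgeR. An unadjusted p under 0.05 was reached by 4 members in Irx5KO, beside 3323 of the 24592 genes tested. In WT it was reached by 0 members, beside 2381 genes. DESeq2 called E2f4 in Irx5KO, where it called 1390 genes (5.65%), and no member in WT, where it called 682 (2.77%). Voom called E2f5 in Irx5KO among 1291 genes (5.25%), and E2f7 and E2f8 in WT among 14333 genes (58.3%), so its share of members in WT lay below that of all genes. Age and date could not be told apart, since each age had its own dates. In Irx5KO, 386 genes passed between P20 and P18 (1.57% of genes tested), 150 higher (0.610%) and 236 lower (0.960%) at P20, and with TMM over all genes kept 19 were higher and 82 lower. In WT 48 did (0.195%), 17 higher (0.0691%) and 31 lower (0.126%), and with RLE scaling 19 were higher and 21 lower. E2f4 came nearest, with 45.8, 35.3, 62.0 and 66.2 CPM in P20 Irx5KO against 35.5, 20.2 and 22.4 CPM in P18 Irx5KO. These groups overlapped by 1 library each, and the log2 fold change was 1.01 ± 0.30 (adjusted p = 0.122, edgeR). In WT the E2f4 value was 0.57 ± 0.30 (adjusted p = 0.575). Rbl1 had a log2 fold change of 1.65 ± 0.63 in Irx5KO (adjusted p = 0.268) and 0.67 ± 0.61 in WT (adjusted p = 0.660), and E2f1 had 1.27 ± 0.56 and -0.04 ± 0.54. E2f3 had 1.91 ± 0.90 and -0.06 ± 0.85, E2f8 1.35 ± 0.91 and -0.47 ± 0.87, and E2f7 0.48 ± 0.99 and -1.57 ± 0.97. E2f6 had 0.77 ± 0.45 and 0.18 ± 0.44, E2f2 0.59 ± 0.73 and 0.16 ± 0.72, Rb1 -0.13 ± 0.27 and 0.27 ± 0.27, and E2f5 -0.58 ± 0.51 and -0.46 ± 0.51, each with the Irx5KO value before the WT one. The ages did not overlap for 1 member in each genotype, E2f6 in Irx5KO (9.63 to 16.02 CPM at P20 against 3.77 to 8.62 CPM at P18) and E2f4 in WT (36.2 to 64.4 CPM at P20 against 25.5 to 36.0 CPM at P18), where 13.8% and 12.4% of all genes tested did not overlap. The spread between the P20 dates entered all of these.

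Activators were set against repressors as the TPM of E2f1, E2f2 and E2f3 over that of E2f4 to E2f8, on full-length coding transcripts. The repressor sum was the larger in all 14 libraries. Activators summed to 5.96, 8.25, 23.2 and 12.8 TPM in P20 Irx5KO 1 to 4 against 8.39, 11.2, 3.27 and 2.51 TPM in P20 WT 1 to 4. Repressors summed to 30.7, 29.6, 65.3 and 54.0 TPM in P20 Irx5KO against 52.2, 38.4, 25.2 and 32.0 TPM in P20 WT. On these transcripts both sums were highest in P20 Irx5KO 3 and 4, whereas over all annotated transcripts the repressor sum was highest in P18 WT 2, at 100.2 TPM against 85.2 and 86.2 TPM in P20 Irx5KO 3 and 4. The log2 ratio averaged -1.95 ± 0.37 in P20 Irx5KO and -2.76 ± 0.79 in P20 WT (SD, n = 4 each), and the groups overlapped. Within dates it was -2.36 and -1.84 in Irx5KO against -2.64 and -1.78 in WT on the later one, which overlapped, and -1.49 and -2.08 in the libraries labelled Irx5KO against -2.95 and -3.67 in WT on the earlier one, which did not. These ratios were not tested. It averaged -2.60 ± 0.66 in P18 Irx5KO and -2.23 ± 0.26 in P18 WT (SD, n = 3 each). Over all annotated transcripts the P18 WT mean was -2.79 ± 0.12, below that of P18 Irx5KO at -2.48 ± 0.61, so the order of the P18 groups turned with the transcripts counted. The lowest ratio over all transcripts was that of P20 WT 4, at -4.05.

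**Figure D3:**
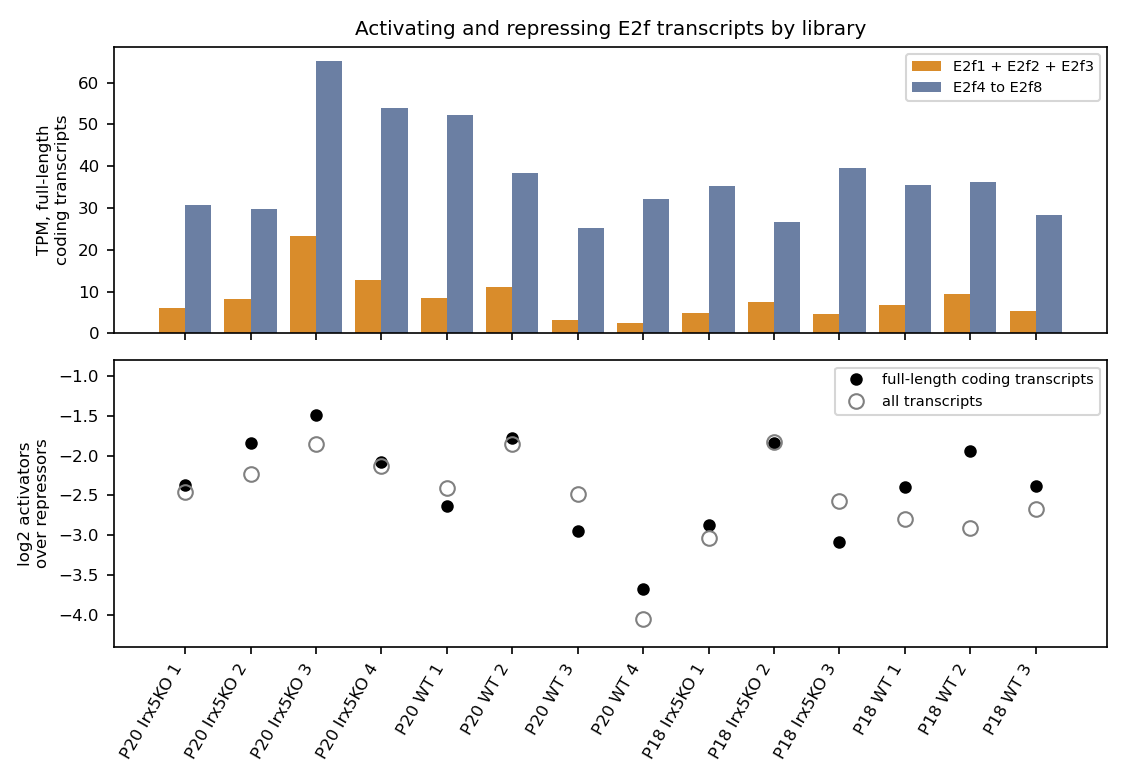
Top, TPM of full-length coding transcripts of E2f1 to E2f3 (orange) and of E2f4 to E2f8 (blue) in each library; bottom, log2 of their ratio on full-length transcripts (filled) and all transcripts (open). Repressors exceed activators in all 14 libraries, and both are highest in P20 Irx5KO 3, at 23.2 and 65.3 TPM.

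Within the repressors the make-up differed between libraries. E2f7 and E2f8 together held 25.1% and 21.6% of the full-length repressor TPM in P20 Irx5KO 3 and 4, against 2.92% and 2.06% in P20 WT 3 and 4. On the later date they held 8.19% and 5.94% in P20 Irx5KO 1 and 2, against 11.6% and 20.6% in P20 WT 1 and 2. The largest share was 28.7%, in P18 WT 2. The log2 ratio of activators to E2f7 plus E2f8 was 1.25, 2.23, 0.50 and 0.13 in P20 Irx5KO 1 to 4 against 0.48, 0.50, 2.15 and 1.93 in P20 WT 1 to 4. It was thus above 1 in the 4 P20 libraries with Mki67 of at most 18.5 CPM and 0.50 or less in the other 4. At P18, where Mki67 was low throughout, the ratio was 0.91, 1.54 and 0.26 in Irx5KO against 0.55, -0.14 and 0.72 in WT, so low Mki67 did not go with a ratio above 1 there.

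The counts of E2f7 came from unlike transcripts. A short 3-exon transcript of 2865 bases, with a coding sequence of 420 bases, held a median of 66.6% of the counts of the gene (2.18% to 100%). In P18 WT 2 it held 1684 of 1924 estimated counts, and in P20 WT 2 it held 890 of 992. The transcripts with the full coding sequence of 2712 bases had 46.0, 16.4, 154 and 96.2 counts in P20 Irx5KO 1 to 4 against 171, 102, 0 and 0 in P20 WT 1 to 4. They had 14.6, 0 and 50.1 counts in P18 Irx5KO against 90.5, 204 and 25.2 in P18 WT. Scaled to depth, the full-length transcripts had 10.6 CPM in P20 Irx5KO 3, the highest, and 9.90 CPM in P18 WT 2, where the whole gene had 93.3 CPM. The split is an estimate of kallisto, which shares reads of common exons between transcripts by a model.

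**Figure D4:**
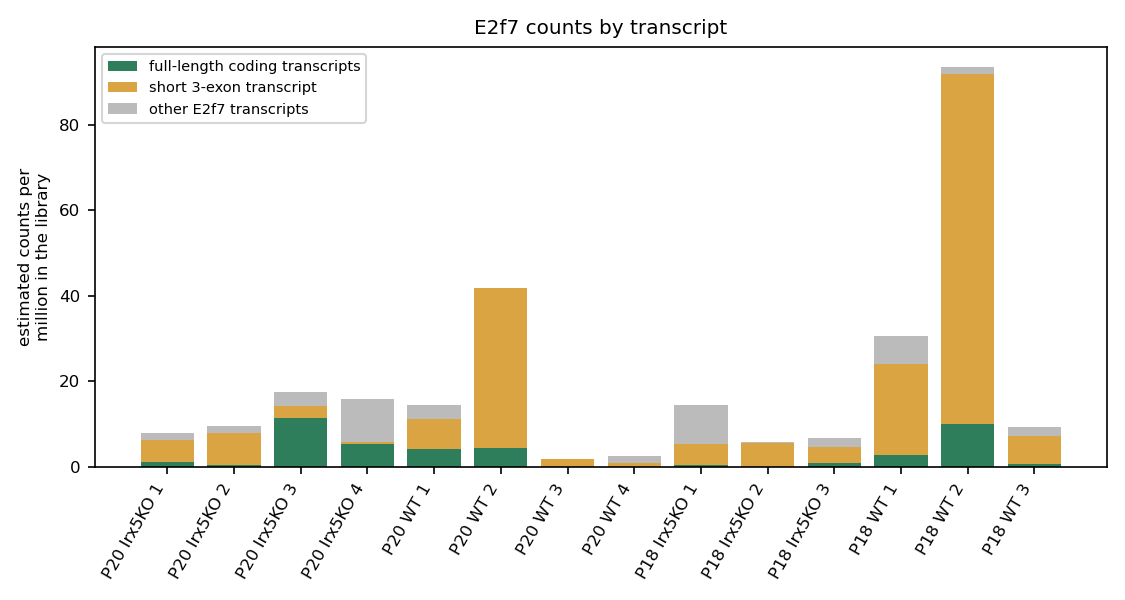
Estimated counts of E2f7 scaled to the total of each library, stacked by transcript: full-length coding (green), the short 3-exon one (yellow) and other (grey). The short one makes up most of the tall bars of P18 WT 2 (1684 of 1924 counts) and P20 WT 2 (890 of 992), and the green part is 0 in P20 WT 3 and 4.

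Other splits were not stable between replicates. The long form of E2f3, whose start is the one shown above, held 5.39% of its full-length counts in P20 Irx5KO 3 and 86.3% in P20 Irx5KO 4, and ranged from 0% to 100% over the 14 libraries. The shorter of the 2 full-length forms of E2f1 likewise ranged from 0% to 100% of them, and the full-length coding transcript of E2f6 from 0% to 73.2% of E2f6. No comparison of isoforms was made for these genes. The full-length transcript held 90.4% to 100% of the counts of E2f4 and 84.7% to 100% of those of Rb1.

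The other genes of the pathway were counted from lists chosen with earlier results of these data known. Of 26 E2F target genes of G1/S, none was higher and 6 were lower in Irx5KO on the later P20 date (median log2 fold change -1.19), where 0.138% of all genes tested were higher and 0.516% lower. On the earlier date 18 were higher and none lower (median 2.10), where the shares over all genes were 2.20% and 2.64%. In the difference between the dates, 15 of the 26 were lower and none was higher (median -3.42), beside 2.68% and 2.49% of all genes. Those lower on the later date and higher on the earlier one included the replicative helicase genes Mcm2, Mcm3 and Mcm5 and Uhrf1, which guides maintenance of DNA methylation. Uhrf1 had 9.38 and 7.05 CPM in Irx5KO against 77.5 and 68.4 CPM in WT on the later date, and 191.1 and 209.6 CPM in the libraries labelled Irx5KO against 4.53 and 5.75 CPM in WT on the earlier one. Its log2 fold changes of -3.15 ± 0.30 (adjusted p = 1.6e-04) and 5.29 ± 0.34 (adjusted p = 1.3e-06) were larger than those of any E2f member. Mcm2 had -2.89 ± 0.29 (adjusted p = 1.9e-04) and 3.75 ± 0.30 (adjusted p = 7.8e-06).

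**Figure D5:**
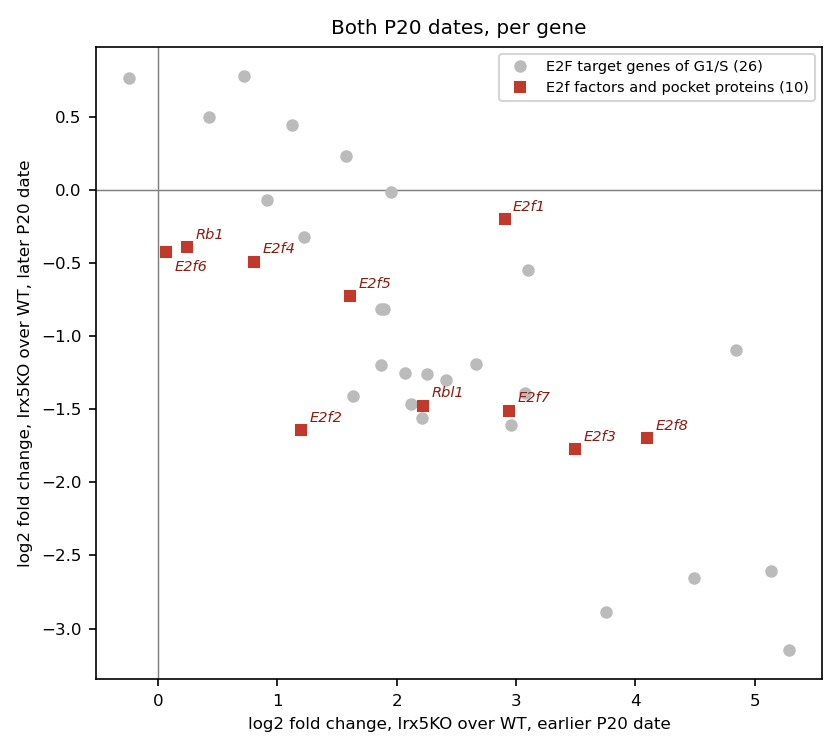
Log2 fold change of labelled Irx5KO over WT on the earlier (x) and the later (y) P20 date, for the 10 members (red squares, named) and 26 E2F target genes of G1/S (grey circles). All 10 members lie below 0 on the y axis and above 0 on the x axis, from E2f6 and Rb1 near the origin to E2f8 at 4.10 and -1.70.

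Among the partners and subunits, Tfdp1, which encodes the DP1 partner of E2F, had 30.0 and 24.2 CPM in Irx5KO against 53.2 and 55.1 CPM in WT on the later date, and 160.9 and 71.7 CPM in the libraries labelled Irx5KO against 34.8 and 46.9 CPM in WT on the earlier one. It passed on the earlier date (1.51 ± 0.34, adjusted p = 0.017, edgeR) and Tfdp2 did not (-0.89 ± 0.41, adjusted p = 0.29). Of 9 genes of the DREAM and MuvB complexes, Foxm1 and Mybl2, whose products join MuvB in dividing cells, were lower in Irx5KO on the later date (-2.36 ± 0.44 and -2.71 ± 0.57) and higher on the earlier one (6.13 ± 0.52 and 5.35 ± 0.65). None of the other 7 passed on either date. They include Rbl2, the gene of the third pocket protein p130, which marks resting cells. Rbl2 had 44.5 and 64.9 CPM in Irx5KO against 45.3 and 54.8 CPM in WT on the later date, and 47.7 and 60.5 CPM in the libraries labelled Irx5KO against 121.6 and 83.8 CPM in WT on the earlier one (-0.92 ± 0.29, adjusted p = 0.085).

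Upstream of the pocket proteins, 1 of 14 tested genes was higher and 2 were lower in Irx5KO on the later date, and 5 were higher and 3 lower on the earlier date, against the same shares over all genes. Cdkn1c, the gene of the kinase inhibitor p57, had 38.2 and 48.5 CPM in Irx5KO against 3.795 and 6.16 CPM in WT on the later date, and 5.09 and 4.70 CPM in the libraries labelled Irx5KO against 29.5 and 42.7 CPM in WT on the earlier one. Its log2 fold changes were 3.12 ± 0.41 (adjusted p = 0.0018) and -2.88 ± 0.41 (adjusted p = 7.0e-04), opposite in sign to those of the E2f genes. Cyclin D2 (Ccnd2) and Cdk4, which phosphorylate pocket proteins together, were lower on the later date (-1.78 ± 0.36 and -1.23 ± 0.25) and higher on the earlier one (1.96 ± 0.37 and 1.33 ± 0.25). The cyclin E genes Ccne1 and Ccne2, classical E2F targets, passed on neither date. The Polycomb partners of E2f6 (10 genes) and its germline targets (4 genes tested) had no gene that passed on either date. Of 4 genes that govern the turnover of E2F proteins, Ccnf, whose product cyclin F marks activator E2Fs for destruction, was higher on the earlier date (1.81 ± 0.45, adjusted p = 0.032). Of 4 multiciliation genes that act with E2f4 and E2f5, Ccno was lower on the earlier date (-3.44 ± 0.58, adjusted p = 0.0024).

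The genes most like the 3 members with a log2 CPM SD of at least 1 were sought among 12221 protein-coding genes over the 14 libraries. Likeness was the root mean square difference of centred log2 CPM. For E2f3 the nearest were Pold1 (0.35), a DNA polymerase subunit gene, Wdhd1 (0.37) and Trip13 (0.41). For E2f8 they were Shcbp1 (0.40), Fanca (0.43) and Timeless (0.44). For E2f7 they were Myb (0.41), Tyms (0.49) and Prim2 (0.59). The E2f7 group shared the high value of P18 WT 2, where Myb had 31.8 CPM, Tyms 219.3 CPM and Prim2 155.2 CPM, against 0.60 to 16.6, 6.90 to 112.8 and 7.63 to 74.5 CPM in the other 13 libraries. Libraries, depth and scaling were common to all these genes, so likeness is a description.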

How the data were processed

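Per the labels' protocols, kallisto 0.46.2 quantified the reads by transcript, and the submitters' processing notes name the build mm10 and DESeq2. The authors deposited, per the file headers, an estimated count and a TPM value for each of 118489 transcripts per library. Of these, 116816 were matched by identifier to GENCODE vM21 (GRCm38), and the other 1673, with 1.19% to 2.59% of the counts, were dropped. Sums of the estimated counts by gene were rounded. Reads were single-end, and no strand setting is given in the sources used here. Kallisto shares ambiguous reads by a model, so transcript splits are less certain than gene sums.

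Counts of the 14 libraries were fitted in edgeR 4.0.16 (R 4.3.3) with robust quasi-likelihood tests after the default expression filter by group. TMM factors came from the 10495 genes with a mean of at least 8 CPM, whose median log2 fold change was then near 0, for example 0.013 for P20 against P18 in WT, where the median of all genes tested was -0.80. The genotype comparisons over an age carried a covariate for date within age, those within a date had 1 coefficient per date and genotype, and those between ages had none. Adjustment was by Benjamini-Hochberg over the 24592 genes tested, and calls were made at an adjusted p under 0.05. SE is the size of the log2 fold change over the square root of F. The script was tested on simulated data.

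Libraries were grouped by title. The codes read as dates stand in the deposited data, and their meaning is not given in the sources used here. In the same data 1 library titled WT at P18, number 3, carries a mark for a heterozygote, and its title was followed. No 2 replicates of a group could be one library deposited again, since a chi-square of their counts, divided by its degrees of freedom, was 56.2 to 460.2. Same-numbered Irx5KO and WT libraries deviated together at P18 (correlations of deviations 0.37, 0.15 and 0.29 over 10495 genes). The lowest was that of number 2, whose libraries carry different dates, whereas those of numbers 1 and 3 share a date. These correlations do not show that the numbers mark pairs, since a shared date could not be told apart from a pair. The main fits held no term for pairs, and the number entered only an alternative fit as a block. The members, gene lists and tests were chosen with earlier results of these data known. The text names the 10 members in every comparison, the 3 genes nearest to members with an SD of at least 1 among genes whose mean log2 CPM (prior count 2) reached 1, and up to 4 genes of a list with the smallest p, or any list gene with its values. The lists held 114 symbols, all matched, 112 of them tested. Alternatives were other scalings, no filter, DESeq2 1.42.0, voom in limma 3.58.1, transcript length offsets, a replicate block, no date term, and each library left out. Added after the data were seen were leaving out 3 receptor-rich libraries and counting full-length transcripts of the members alone.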

Additional observations from a re-analysis of the deposited data

Results flagged for a closer look

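The genotype difference of 5 members was not the same on both P20 dates, by a test of the difference itself (later-date minus earlier-date log2 fold change of labelled Irx5KO over WT). It was -5.79 for E2f8, -5.27 for E2f3, -4.45 for E2f7, -3.70 for Rbl1 and -3.10 for E2f1. One library stood apart within its group of 4: E2f6 had 16.02 CPM in P20 Irx5KO 4, where the other 3 libraries of that group had 9.63 to 10.7 CPM. Chance puts about 1 in 20 groups past this limit, and 2 groups of 4 were looked at for each of the 10 members.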

How the results depend on the processing

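Of 650 values of single members under settings other than leaving out a library, 36 turned in direction, as did 40 of 980 with a library left out. None of them was a value that had passed, and the largest such value was 1.35 on the log2 scale. Scaling with TMM over all genes kept moved the median of well-expressed genes to 0.34 for P18 Irx5KO minus WT and to 0.40 for P20 minus P18 in WT. With it, P18 Irx5KO minus WT was 0.13 for E2f1, 0.20 for E2f2, 0.23 for E2f4 and 0.23 for Rbl1, E2f6 had -0.038 on the earlier P20 date, and P20 minus P18 in WT was 0.26 for E2f1 and 0.38 for E2f3. It called 101 genes between P20 and P18 in Irx5KO (19 higher and 82 lower, in place of 150 and 236) and 0 in WT. With RLE scaling, P20 minus P18 in WT was 0.054 for E2f1 and 0.055 for E2f3, and 1 member (Rbl1) passed on the later P20 date. No expression filter called 183 genes at P18, 209 over both P20 dates, 668 on the later date with 1 member, 2100 on the earlier date and 2041 for their difference. DESeq2 called 22 genes at P18, 91 over both P20 dates, 463 on the later date with 2 members and 2647 on the earlier date. For the difference of dates it called 2404 genes and 8 members, where edgeR called 1271 and 5. Between the ages DESeq2 called 1390 genes and 1 member (E2f4) in Irx5KO and 682 genes in WT, where E2f1 had 0.054 and E2f3 0.056. With voom and sample quality weights, 1 gene passed at P18, 181 genes and 2 members (E2f1 and E2f8) over both P20 dates, 32 genes on the later date and 1891 on the earlier one, 1291 genes and 1 member between the ages in Irx5KO, and 14333 genes and 2 members in WT. That setting gave 0.021 for E2f2 and 0.0090 for Rbl1 at P18, 0.40 for E2f2 and 0.097 for Rb1 over both P20 dates, -0.28 for E2f2 and -0.32 for E2f8 between the ages in Irx5KO, and -0.13 for E2f2 in WT. With transcript length offsets 101 genes passed on the later P20 date, 222 between the ages in Irx5KO and 26 in WT. E2f2 had 0.54 at P18, Rb1 0.070 over both P20 dates, E2f6 -0.36 on the earlier date and 0.33 in the difference of dates, and Rbl1 -0.034 between the ages in WT. With no date term E2f7 had -0.19 over both P20 dates. Without the 3 receptor-rich libraries, a setting added after the data were seen, 1 member (Rbl1) passed on the later date, 1878 genes passed on the earlier date and 2 between the ages in WT. E2f1 then had 0.15, E2f2 0.30 and Rbl1 0.0022 at P18, E2f6 0.060 over both P20 dates, E2f1 0.10 and E2f6 0.043 on the later date, and E2f3 0.085 between the ages in WT. On full-length transcripts of the members, likewise added, 1 member (Rbl1) passed on the later date. E2f6 had 2.31 at P18, -10.27 on the earlier P20 date, 10.12 in the difference of dates and -1.22 between the ages in Irx5KO, and E2f7 had 11.06 on the earlier P20 date and -13.27 in the difference of dates, fits that rest on libraries listed at 0 and are no bounds. The activator to repressor log2 ratio of P18 WT was -2.23 on these transcripts.

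With the replicate number as a block, 199 genes passed on the later P20 date, 1217 on the earlier one and 1334 for their difference, with 0, 5 and 5 members, and 368 and 44 genes between the ages in Irx5KO and WT. At P18 the block left 0 genes, and it changed no call of a member. E2f3 had 0.031 between the ages in WT under it. At P20 the correlations of deviations were 0.041, 0.44, 0.17 and 0.31 for numbers 1 to 4. Numbers 2 and 4 correlated best with their own number, and numbers 1 and 3 did not. Same-numbered P20 libraries also share a date, so these correlations do not show whether the numbers mark pairs.

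Leaving out 1 library at a time gave 0 to 1 genes at P18, 30 to 255 on the later P20 date with 0 to 1 members, 424 to 1574 on the earlier date with 3 to 6 members, 649 to 1447 for their difference with 4 to 7 members, and 56 to 418 and 5 to 88 genes between the ages in Irx5KO and WT. The counts moved most without P20 Irx5KO 2 (30) and P20 Irx5KO 1 (53) on the later date, without P20 WT 3 (424), P20 WT 4 (675) and P20 Irx5KO 4 (718) on the earlier date, without P20 WT 3 (649) and P20 Irx5KO 2 (681) for the difference, without P18 Irx5KO 3 (56) in Irx5KO and without P20 WT 4 (5) in WT. At P18 the values ran from -0.53 to 0.19 for E2f1, -0.62 to 0.35 for E2f2, -0.23 to 0.065 for E2f4 and -0.26 to 0.044 for Rbl1. Over both P20 dates they ran from 0.73 to 1.89 for E2f1, 0.083 to 1.01 for E2f5, -0.69 to 0.34 for E2f2, -0.34 to 2.05 for E2f3, -0.0039 to 0.36 for E2f4, -0.39 to 0.047 for E2f6, -0.26 to 1.57 for E2f7, -0.24 to 2.58 for E2f8, -0.20 to 0.15 for Rb1 and -0.33 to 1.05 for Rbl1. On the later date they ran from -0.42 to 0.070 for E2f1, -1.27 to 0.17 for E2f5, -0.75 to 0.0095 for E2f6, -2.03 to -0.67 for E2f7 and -0.74 to 0.021 for Rb1, and on the earlier date from 0.61 to 1.63 for E2f2 and -0.34 to 0.39 for E2f6. Between the ages they ran from -0.00062 to 0.79 for E2f2 in Irx5KO, and in WT from -0.53 to 0.28 for E2f1, -0.13 to 0.68 for E2f2, -0.46 to 0.53 for E2f3 and -0.018 to 0.70 for E2f6. A lone library of a date and genotype was assumed to vary like the others. The cause of these moves was not tested.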

Other observations

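Of the 26 E2F target genes of G1/S, 5 had a positive log2 fold change in Irx5KO on the later P20 date, when Mki67 was lower in Irx5KO than in WT. They were singled out after their values were seen. Pcna, the replication clamp gene, had 81.2 and 102.2 CPM in Irx5KO against 71.5 and 58.0 CPM in WT (log2 fold change 0.50 ± 0.28). Ezh2, a Polycomb methyltransferase gene, had 84.3 and 92.7 CPM in Irx5KO against 78.2 and 51.7 CPM in WT (0.45 ± 0.29), and Slbp, the histone mRNA binding protein gene, had 85.7 and 122.6 CPM against 69.1 and 51.9 CPM (0.78 ± 0.28). Cdc45, a replicative helicase gene, had 665.3 and 810.1 CPM in Irx5KO against 542.4 and 325.9 CPM in WT (0.76 ± 0.38). Rrm2, a ribonucleotide reductase gene, had 42.0 and 35.3 CPM in Irx5KO against 38.3 and 27.2 CPM in WT (0.24 ± 0.37). The groups overlapped for Rrm2 and did not for the other 4, where 30.0% of all genes tested did not overlap on the later date. In the earlier-date WT libraries Pcna had 75.0 and 66.0 CPM, Ezh2 45.7 and 36.5 CPM, Slbp 61.5 and 46.9 CPM, Cdc45 241.2 and 213.4 CPM and Rrm2 32.2 and 14.1 CPM. The earlier-date libraries labelled Irx5KO had 107.4 and 81.6 CPM for Pcna, 73.6 and 105.0 CPM for Ezh2 and 83.3 and 95.5 CPM for Slbp. They had 237.1 and 147.6 CPM for Cdc45 and 73.6 and 64.5 CPM for Rrm2. Of the 5 genes, only Cdc45 was thus lower there than in WT. None of the 5 passed between the genotypes on the later date (adjusted p from 0.48 for Slbp to 0.93 for Rrm2, edgeR), and their difference from the other genes of the list was not tested.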
